A study of Homo sapiens with 26 samples.

Results

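Integrins, collagens, laminins and cadherins are the molecules by which animal cells hold on to the matrix and to each other. Collagens and laminins are secreted and build the fibrils and basement membranes outside the cell, integrins are paired alpha and beta chains that span the membrane once and bind that matrix, and cadherins, protocadherins and the giant FAT cadherins are single-span receptors that meet their like on neighbouring cells. All of them are made by ribosomes that dock on the ER, where a hydrophobic signal sequence near the start of the chain directs it into the Sec61 translocon.

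The genes described here are the protein-coding genes whose symbol begins with ITGA, ITGB, COL followed by chain numbers, LAMA, LAMB, LAMC, CDH, PCDH or FAT and that reached 64 coding-sequence footprints in each total input of the ER line. Of 179 protein-coding genes with such a symbol, 37 qualified. Another 102 had an entry of their own but fewer footprints, and 40 lie only in entries that several genes share, among them the clustered protocadherins. In the whole data set 7381 of 57770 single-gene entries reached the same minimum. The 37 genes are 6 integrin alpha chains, 2 integrin beta chains, 12 collagens, 7 laminins, CDH2, 4 protocadherins and 3 FAT cadherins, plus 2 genes that share only the first letters of the symbol. These are ITGB1BP1 and ITGB3BP, whose products are known as a cytoplasmic integrin-binding adaptor and a kinetochore and nuclear receptor cofactor and not as integrins. ITGB5, with 90.6 and 66.9 footprints in the total inputs, and LAMC3, with 124 and 72.0, lie just inside the minimum. COL25A1, with 81 and 62.8, and ITGA7, with 93.2 and 50, lie just outside.

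The cells are HEK293T, an established human embryonic kidney line, with an Avi tag, the peptide that BirA biotinylates, knocked in at the ribosomal protein RPL29 in monoclonal lines. LOV-BirA, which is active only under blue light, was introduced by lentivirus into sorted polyclonal pools, either fused to Sec61β for the ER (SFFV promoter), fused to the OMP25 TMD for the OMM (EF1α promoter) or left in the cytosol, and ribosomes were labeled for 10 min in the presence of CHX. From each of 2 replicate lysates per location a total input and a streptavidin pulldown were made into ribosome footprint libraries. With the OMM bait, whole transcripts held by labeled ribosomes were also sequenced from wild-type cells carrying a negative control gRNA, from AKAP1 null and from LARP4 null cells, 2 lysates each, and from cells without CHX, 1 lysate labeled for 1 min. Each knockout is 1 monoclonal line, so a difference between genotypes cannot be told apart from a difference between clones. Nothing in the labels says that the 2 replicates were separate cultures, so p-values measure the spread between these lysates.

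Values per library are given as CPM, counts scaled to equal library totals. Totals ran from 1025134 to 19539577 footprints in coding sequences and from 38347615 to 100840544 RNA-seq counts, with the fewest footprints in the OMM pulldown of replicate 1. The total input of cytosolic replicate 2 stood apart: its log2 ratios to the other 5 total inputs had an SD of 0.668 to 0.709 across genes, against 0.122 to 0.389 among the other 5. All 7 markers listed for HEK293T were at 1 CPM or more in every RNA-seq total input, and none of the 4 endothelial, 6 blood or 3 hepatocyte markers was. Of 6 fibroblast markers only COL1A1 was, at 7.16 to 23.1 CPM, with COL1A2, the usual partner chain of COL1A1, at 0 counts throughout. AKAP1 stood at 32.1 and 20.3 CPM in the total inputs of its null line against 115 and 119 CPM in wild type, and LARP4 at 79.3 and 74.0 CPM against 225 and 231 CPM.

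Signal sequences lie near the start of the chain, so the most hydrophobic early codons of a few genes are shown before the values. For each gene the 10 codons with the highest mean Kyte-Doolittle hydropathy (a scale on which oil-like residues score high) were taken from the first 40 codons of the annotated coding sequence. The runs below are 30 bases on the coding strand, 5′ to 3′, and capitals mark codons for leucine, isoleucine, valine and phenylalanine. The first 5 belong to genes of different classes that were enriched at the ER, the next 2 to the collagen and the integrin that were not, and the last 2 to the genes that match by symbol only.
COL4A1: CTGCTGCTGCTGcccgccgccCTTCTGCTC
LAMA1: GTGCTCCTGGTCTTGCTGCTGtgtGTCgcc
ITGAV: CTCccgCTTCTTCTCtcgggaCTCCTGCTA
CDH2: accCTGCTGccgCTGCTGgcggccCTGCTT
FAT1: TTGgctTTGCTCCTGCTTCTGCTCCTTCTC
COL1A1: CTCCTGCTCCTCTTAgcggccaccgccCTC
ITGAE: CTGCTCtgcATAgccagcCTGgccCTGCTG
ITGB1BP1: tctGTGgattctagcCTTgggggtCTTtca
ITGB3BP: GTTATAacttattctccaacaactggaact

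In COL4A1 the run spans codons 9 to 18 (GRCh38 chr13:110306974-110307003, minus strand), in LAMA1 codons 5 to 14 (chr18:7117679-7117708, minus), in ITGAV codons 16 to 25 (chr2:186590384-186590413, plus), in CDH2 codons 10 to 19 (chr18:28176966-28176995, minus) and in FAT1 codons 5 to 14 (chr4:186709786-186709815, minus). In COL1A1 it spans codons 9 to 18 (chr17:50201460-50201489, minus), in ITGB1BP1 codons 25 to 34 (chr2:9414227-9414256, minus) and in ITGB3BP codons 29 to 38 (chr1:63490153-63490182, minus). In ITGAE it spans codons 7 to 16 and crosses an exon junction. All are in coding exons of the GENCODE 44 canonical transcript. Across the 33 genes enriched at the ER the highest mean hydropathy ran from 1.70 to 3.60 with a median of 2.63. The median over 7359 genes tested at the ER was 0.960, and 21.1% of them reached 1.70. COL1A1 had 2.75 and ITGAE 2.88, within the range of the ER-enriched genes, while ITGB1BP1 had 0.430 and ITGB3BP 0.180. The annotated starts of COL1A1 and ITGAE thus hold a run as hydrophobic as those of the enriched genes.

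At the ER, 33 of the 37 genes were enriched in the pulldown and 3 were depleted (edgeR quasi-likelihood test, adjusted p below 0.05), where 19.9% of all 7390 genes tested were enriched and 72% depleted. The fitted log2 enrichment of the 33 ran only from 1.89 to 2.54, with a median of 2.30 and an SD between genes of 0.169, and the median of all genes was -0.68. In fold terms the median is 4.92. In replicate 1 the median log2 ratio of these 33 genes was 2.54 and in replicate 2 it was 2.07, and 32 of the 33 were higher in replicate 1. With TMM, which brings the median of all genes to -0.03, 34 were enriched and 1 depleted, against 29.2% and 25.4% of all genes. The gap between the lysates was larger than most gaps between genes, so the order of neighbouring genes within the band is not resolved. The raw data of the 2 lysates also lay in different folders, taken here as sequencing runs, so lysate and run cannot be told apart.

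**Figure D1:**
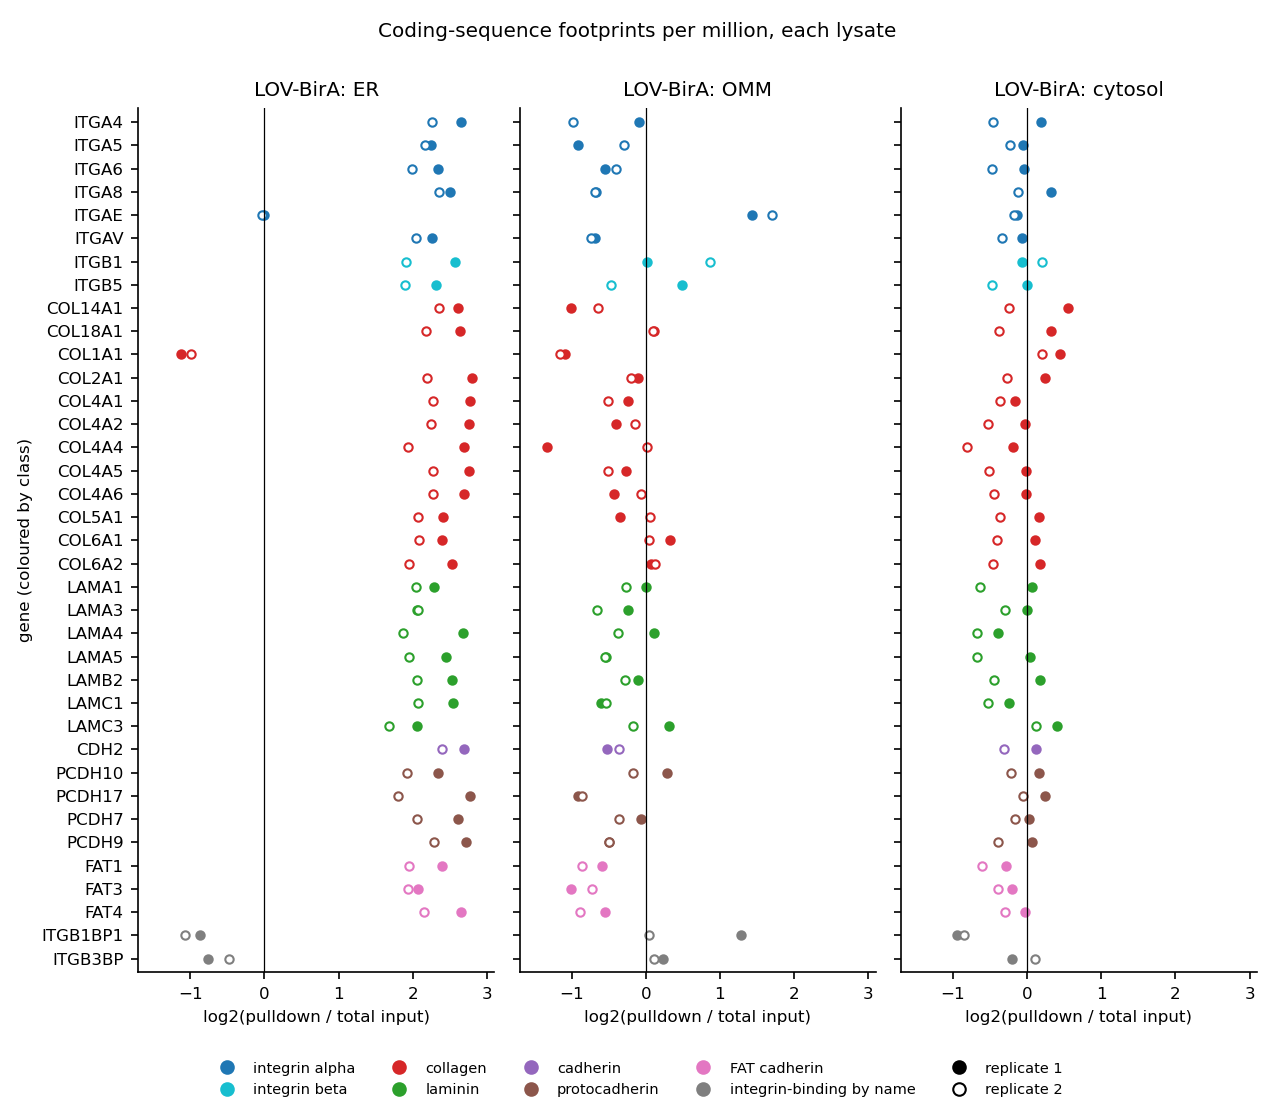
log2 ratio of pulldown to total input (CPM of footprints in coding sequences) for each of the 37 genes, by location of LOV-BirA, filled points replicate 1 and open points replicate 2, coloured by class. At the ER 33 genes form a band well to the right of 0 while COL1A1, ITGAE, ITGB1BP1 and ITGB3BP lie at or below 0. At the OMM ITGAE alone lies above 1 in both replicates.

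Of the 12 collagens 11 were enriched. COL4A1, a chain of the type IV collagen of basement membranes, rose from 167 to 1142 CPM in ER replicate 1 and from 131 to 634 in replicate 2, a fitted log2 of 2.53 ± 0.12 (SE). COL4A2, its partner chain, whose gene lies head to head with it on the other strand of chromosome 13 and overlaps its first bases, went from 208 to 1414 and from 187 to 887. COL4A5 and COL4A6, another head-to-head pair on chromosome X, rose from 139 to 941 and from 122 to 593, and from 51.5 to 334 and from 52.1 to 252. COL2A1, the fibril collagen of cartilage and the gene of this group with the most footprints in these cells, rose from 475 to 3302 and from 623 to 2851. COL6A1 and COL6A2, chains of the beaded filaments around cells, were at 2.24 and 2.25, and COL18A1, which carries endostatin at its end, was at 2.41. In each of these 8 collagens both ER pulldowns exceeded both ER total inputs, as in 33 of the 37 genes and in 20.2% of all genes tested. COL4A6 was named after its values were seen, as the partner of COL4A5.

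Laminins were enriched in 7 of 7 cases, with a median log2 of 2.21. LAMC1, the common gamma chain of most laminin trimers, went from 378 to 2203 and from 474 to 1998 CPM. LAMA1, LAMA4 and LAMB2 had fitted values of 2.16, 2.28 and 2.30, and LAMC3, which has the lowest value of the 33, had 1.89 ± 0.17. Its total inputs of 9.70 and 11.1 CPM against pulldowns of 40.2 and 35.8 do not overlap either.

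Of the integrins, ITGAV, the alpha chain of the RGD-binding receptors, rose from 89.6 to 428 and from 108 to 444 CPM (log2 2.15 ± 0.10). ITGA5, the alpha chain of the fibronectin receptor, and ITGA6, that of laminin receptors, were at 2.21 and 2.17. ITGB1, the beta chain most alpha chains pair with, was at 2.26 and ITGB5 at 2.12. ITGB1 is counted over 189 bases, 7.89% of its coding length, so its value rests on little of the chain. Why so few bases were counted was not tested.

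Cadherins and their relatives were enriched in 8 of 8 cases. CDH2, the N-cadherin of these cells, went from 250 to 1608 and from 317 to 1663 CPM and had the highest fitted value of the group, 2.54 ± 0.11. PCDH9 was at 2.51, PCDH7 at 2.35, PCDH17 at 2.33 and PCDH10 at 2.16. FAT1, FAT3 and FAT4, proteins of 4588, 4589 and 4983 aa, were at 2.18, 2.00 and 2.42.

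COL1A1, the major chain of type I collagen, was the exception among collagens. It fell from 59.0 to 26.96 CPM in ER replicate 1 and from 51.6 to 26.0 in replicate 2, a fitted log2 of -1.07 ± 0.12 (adjusted p = 2.3e-07). At the OMM it fell too, from 43.7 to 20.5 and from 57.6 to 25.9 (-1.13 ± 0.18, adjusted p = 3.8e-05). In the cytosol it went from 53.7 to 73.2 and from 165 to 190, a fitted 0.32 ± 0.11 that did not pass the test (adjusted p = 0.093). OMM enrichment was 1.45 lower in log2 than cytosolic enrichment (adjusted p = 2.6e-05). The counts behind the ER values are 754 and 334 footprints in the total inputs and 527 and 307 in the pulldowns, so the values do not rest on few footprints. COL1A1 is a gene of 1464 codons at chr17:50184101-50201632 on the minus strand, and 102% of its coding length was counted. Its log2 ratio at the ER was near the median of -1.06 of all genes of 1200 to 2000 aa, which was also the range of most other collagens. COL1A1 had 17.9 and 8.42 CPM of mRNA in the wild-type total inputs, so the replicates of its mRNA level also differed.

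ITGAE, the alpha chain that pairs with ITGB7 to bind E-cadherin on lymphocytes, was the exception among integrins. Its footprints at the ER were 60.3 in total input and 59.9 CPM in pulldown in replicate 1 and 38.3 and 37.5 in replicate 2, a fitted log2 of -0.02 ± 0.12 (adjusted p = 0.87). At the OMM it rose from 49.7 to 134 and from 47.1 to 154 (1.58 ± 0.14, adjusted p = 3.2e-08), the only member called enriched there. Its OMM enrichment exceeded its cytosolic enrichment by 1.74 ± 0.18 (adjusted p = 7.0e-07), and its ER minus OMM difference was -1.601 ± 0.18 (adjusted p = 4.7e-07). Whole ITGAE transcripts were enriched at the OMM as well, from 27.2 to 49.8 and from 26.8 to 51.0 CPM in wild-type RNA-seq (0.90 ± 0.11, adjusted p = 0.00021). Against the median of all genes its ER value was higher, and with TMM or DESeq2 scaling its ER log2 turned positive, at 0.63 and 0.59, and it was called enriched (adjusted p = 0.00031 and 0.00044). The gene lies at chr17:3714628-3801188 on the minus strand and shares part of that span with HASPIN on the other strand, whose RNA cannot be told apart there if counting ignored strand. No footprint was counted in the 44 bases of its 5′ UTR in the ER libraries, against 770 and 248 in the coding sequence of the total inputs.

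The symbol-only matches were both depleted at the ER. ITGB3BP fell from 262 to 155 and from 249 to 178 CPM (-0.62 ± 0.10, adjusted p = 2.0e-05), close to the median of all genes, and with TMM scaling it was at 0.02. ITGB1BP1 fell from 14.2 to 7.76 and from 10.5 to 4.99 (-0.95 ± 0.23, adjusted p = 0.00083).

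The enrichment at the ER was not seen with the other baits. The difference between the ER and cytosolic enrichments was positive for 30 and negative for 2 of 33 genes tested, where 19.6% of all genes were positive and 62.6% negative. Between the ER and the OMM it was positive for 28 and negative for 2 of 31, against 18.5% and 31% of all genes. With TMM these shares of all genes were 28.9% and 20.2% for the cytosol, with 31 and 1 members, and 22.6% and 14.2% for the OMM, with 28 and 2 members. The median ER minus OMM difference was 2.69 in the group and -0.28 over all genes. COL1A1 had an ER minus OMM difference of 0.06 ± 0.22 and an ER minus cytosol difference of -1.39 ± 0.16. ITGAE had an ER minus cytosol difference of 0.14 ± 0.17, which did not pass the test, and ITGB3BP was negative in both contrasts (-0.78 and -0.57).

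**Figure D2:**
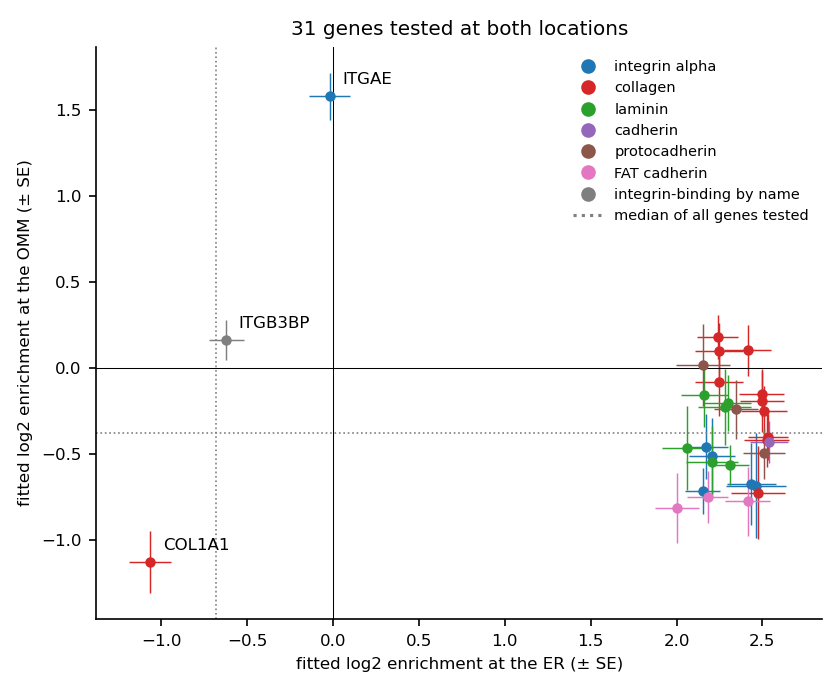
Fitted log2 enrichment at the OMM against that at the ER with SE for the 31 genes tested at both, and dotted lines at the medians of all genes tested. 28 genes lie together at the right, and COL1A1, ITGAE and ITGB3BP lie apart at the left.

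At the OMM 1 of 31 genes was enriched and 14 were depleted, against 17% and 45.9% of all genes. The group's median log2 was -0.42 and that of all genes -0.38, so without regard to length the group lay at the middle of all genes. By length its median was -0.45 at 400 to 1200 aa, -0.25 at 1200 to 2000 aa and -0.65 above 2000 aa. The medians of all genes of these lengths were lower, at -0.58, -0.83 and -0.88. The count of depleted genes rests on the scale: with TMM, which brings the median of all genes to -0.06, 4 genes were enriched and 3 depleted, against 25.8% and 24.4% of all genes. Apart from COL1A1, the lowest were FAT3, from 31.2 to 15.6 and from 31.5 to 19.2 CPM (-0.81 ± 0.20), FAT4 (-0.78), FAT1 (-0.75) and COL14A1 (-0.73). After ITGAE the highest were COL6A1 (0.18), ITGB3BP (0.16), COL18A1 (0.10) and COL6A2 (0.10), and none of these passed the test. With simulated OMM counts in which only 200 genes changed, changes of 1 in log2 were recovered for 92.5% and changes of 0.5 for 33%. The fit of the real counts called 1144 genes enriched and 3094 depleted, which makes the adjusted threshold easier to pass. COL4A1 (-0.40), COL4A5 (-0.42) and CDH2 (-0.43) were called depleted there, while ITGA5 (-0.51) and LAMA3 (-0.46) were not. The simulated shares therefore do not give the sensitivity of this fit.

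Between the OMM and the cytosol 1 of 30 genes had a higher and 5 a lower enrichment at the OMM, against 16.5% and 39.7% of all genes, and with TMM 3 and 1 did, against 24.5% and 20.8%.

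With cytosolic LOV-BirA the members' log2 values ran only from -0.54 to 0.32. By edgeR none of 33 genes was enriched and 3 were depleted, against 2.04% and 5.95% of all genes. An unadjusted p below 0.05 was found for 8 of the 33 and for 1505 of all 7173 genes. DESeq2 called 0 of the 33 either way, against 1.13% and 3.67% of all genes. With TMM 1 was depleted, against 1.94% and 5.76% of all genes enriched and depleted. The 3 are LAMA4 (-0.54 ± 0.16), FAT1 (-0.45 ± 0.12) and LAMC1 (-0.38 ± 0.11). LAMC1 went from 361 to 305 and from 824 to 574 CPM. The median log2 ratio of the group was -0.01 in replicate 1 and -0.38 in replicate 2, the lysate whose total input stood apart. Without replicate 2 the fitted median of the members was 0.01 (n = 37), against 0.0002 over all genes. Without replicate 1 it was -0.37 (n = 33), against 0.02 over all genes.

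Coding length runs in this group from 177 aa (ITGB3BP) to 4983 aa (FAT4), and it was compared with enrichment as a description. At the ER Spearman's rho across the 37 genes was 0.14 (Pearson r = 0.51) and -0.01 (r = 0.03) without the symbol-only matches, which are the shortest and have low values. Across all 7387 genes with a length rho was -0.36. The median ER log2 was 2.24 for the 13 genes of 400 to 1200 aa, 2.39 for the 16 of 1200 to 2000 aa and 2.17 for the 6 longer ones. FAT1, of 4588 aa, and ITGAV, of 1048 aa, had values of 2.18 and 2.15. Over all genes the medians of the same classes were -0.80, -1.06 and -1.13.

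At the OMM rho was -0.34 in the group (n = 31) and -0.62 over all genes (n = 6739), and with RNA-seq of wild-type cells -0.50 (n = 37) and -0.56 (n = 12091). The median RNA-seq log2 at the OMM was 0.69 for the 2 genes under 400 aa, -0.29 for the 13 of 400 to 1200 aa, -0.37 for the 16 of 1200 to 2000 aa and -0.997 for the 6 longer ones. The medians of all genes in the same classes were 0.17, -0.43, -0.72 and -0.98. The fall with length was thus seen in the group as in all genes, and the class of 1200 to 2000 aa, which holds most collagens, lay above the median of all genes of its length. With cytosolic LOV-BirA rho was -0.42 (n = 33) against 0.01 over all genes (n = 7170), but -0.09 in replicate 1 alone. Genes are not independent replicates, and all points of a panel share the same libraries.

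**Figure D3:**
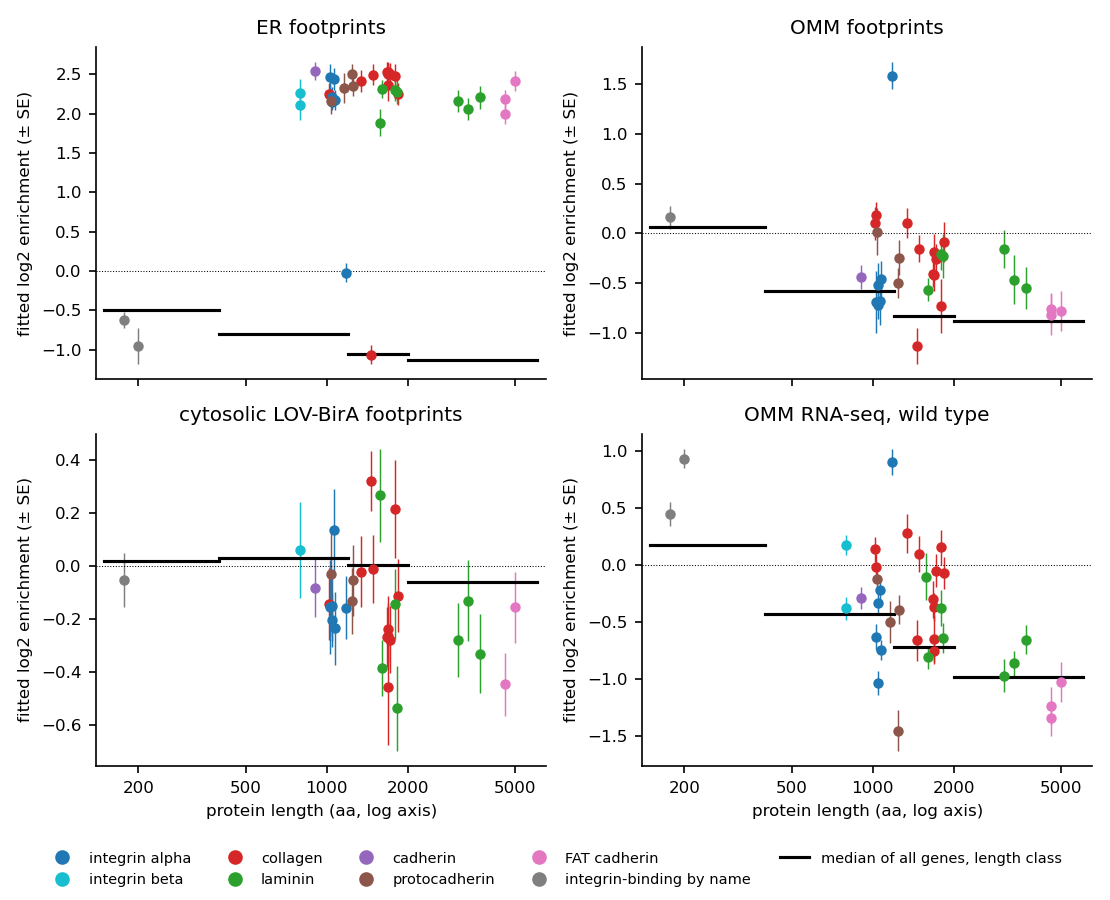
Fitted log2 enrichment (± SE) against protein length on a log axis for ER, OMM and cytosolic footprints and for OMM RNA-seq of wild-type cells. Thick black lines are medians of all genes tested in 4 length classes. ER values of the enriched genes show no trend up to 4983 aa, and the OMM RNA-seq values fall with length as the medians of all genes do.

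In wild-type RNA-seq at the OMM 3 of 37 genes were enriched and 21 depleted, against 20.2% and 45.6% of all 13856 genes tested. With TMM these counts were 7 and 13, against 31% and 27.8%. The 3 enriched were ITGB1BP1, from 62.7 to 115 and from 58.8 to 117 CPM (0.93 ± 0.09), ITGAE and ITGB3BP (0.45 ± 0.10). The lowest were PCDH9, from 326 to 129 and from 265 to 89.6 CPM (-1.45 ± 0.18), then FAT3 (-1.35), FAT1 (-1.24), ITGAV (-1.04) and FAT4 (-1.02). COL18A1, at 0.28, and ITGB5, at 0.18, were the highest secretory members after ITGAE and did not pass the test.

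In AKAP1 null cells on their own 8 genes were enriched and 9 depleted, against 13.9% and 28.1% of all genes (with TMM 11 and 5, against 20% and 20.7%), and in LARP4 null cells 4 and 14, against 22.8% and 30% (with TMM 7 and 13, against 27.9% and 25%). The enrichment of 7 of the 37 genes was higher in AKAP1 null cells than in wild type and that of 2 was lower, against 6.52% and 7.96% of all genes. AKAP1 is an OMM protein that binds RNA. The lower pair were ITGAE, which went from 24.2 to 21.4 and from 28.6 to 20.5 CPM in the null line (difference -1.23 ± 0.16, adjusted p = 0.0018), and ITGB1BP1, at 66.9 CPM in both libraries of replicate 1 and 60.0 and 59.4 in replicate 2 (-0.94 ± 0.12, adjusted p = 0.0016). Both were enriched at the wild-type OMM, and in the null line their own fitted values were -0.33 ± 0.11 for ITGAE (adjusted p = 0.048) and -0.01 ± 0.09 for ITGB1BP1 (adjusted p = 0.96). The 7 higher ones were ITGAV (0.66 ± 0.15), CDH2 (0.65), COL6A2 (0.64), ITGA5, LAMC1, ITGA6 and ITGB1 (0.55). All encode chains enriched at the ER, as do 33 of the 37 genes. Over all genes this difference rose with coding length (rho 0.50), and in the group rho was -0.02. Medians of all genes were 0.28 at 400 to 1200 aa and 0.34 in each longer class. In the group the medians of these 3 classes were 0.54, 0.42 and 0.45. CDH2 went from 135 to 122 and from 147 to 109 CPM in wild type, and from 113 to 144 and from 142 to 184 in the null line. These 7 calls depend on the scale and on each lysate: the median of all genes was 0.19, with TMM it was 0.01 and 0 of the 7 were called (2.06% of all genes were higher and 10.3% lower), and leaving out any 1 of the 4 lysates left 0 to 2. ITGAE and ITGB1BP1 kept their calls in each of these fits.

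In LARP4 null cells edgeR called no gene of the group against wild type and 0 of all 13856 genes. An unadjusted p below 0.05 was found for 2 of the group and for 2270 of all genes. DESeq2 called 0 of the group. Over all genes DESeq2 called 2 higher and 454 lower. The median difference was 0.15 in the group and 0.17 over all genes. For the AKAP1 and LARP4 null contrasts counts were simulated in which only 200 genes changed. Changes of 1 in log2 were recovered for 67% and 70% of these genes and changes of 0.5 for 0%. In simulated data changes of the smaller size were thus missed. The AKAP1 null contrast of the real counts called 903 genes higher and 1103 lower, so these shares need not hold there. Without LARP4 null replicate 1, 10 members (27%) were called higher and 1 (2.7%) lower, against 32.7% and 8.27% of all genes in that fit, so the members' shares were no larger than those of all genes. For the mRNA level in the total inputs no member passed the test against wild type in either line, with edgeR or with DESeq2. With edgeR 0% of all genes passed it in AKAP1 null cells, and 0.00715% were higher and as many lower in LARP4 null cells. An unadjusted p below 0.05 was found for 1 and 5 members, against 489 and 509 of all 13977 genes.

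**Figure D4:**
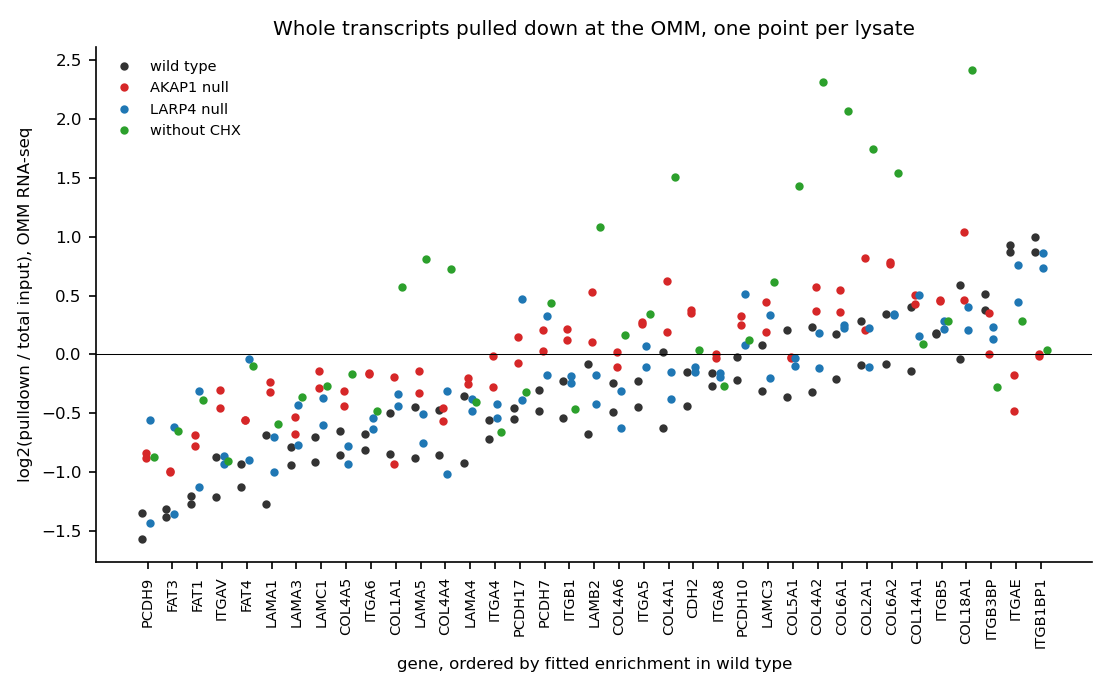
log2 ratio of pulldown to total input in OMM RNA-seq for each gene, 1 point per lysate, for wild type, AKAP1 null, LARP4 null and cells without CHX, in order of the fitted value in wild type. ITGAE and ITGB1BP1 lie lower in AKAP1 null cells than in wild type. COL4A1, COL4A2, COL6A1, COL6A2, COL2A1, COL5A1 and the laminin LAMB2 lie above 1 only in the lysate without CHX.

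Without CHX the collagens had the highest median log2 ratio of the classes in the 1 lysate there is, at 1.47. COL18A1 went from 15.8 to 83.8 CPM (log2 2.41, against 0.59 and -0.04 in the wild-type lysates with CHX), COL4A2 from 12.9 to 63.9 (2.31, against 0.24 and -0.32), COL6A1 from 29.9 to 125 (2.06, against 0.18 and -0.21) and COL2A1 from 30.4 to 102 (1.75, against 0.28 and -0.09). Of the 12 collagens 11 lay above both wild-type lysates, with a median difference of 1.45 from their mean, and COL1A1 was among them at 0.57. FAT cadherins differed by a median of 0.85, laminins by 0.54, protocadherins by 0.41 and integrin alpha chains by 0.06, while ITGB1BP1, ITGB3BP and ITGAE were lower. The classes overlapped. The laminins LAMA5 and LAMB2 differed by 1.47 and 1.46, and the collagens COL14A1, COL4A6 and COL4A5 by only -0.05, 0.53 and 0.58. Over the group 28 of 37 genes were above both lysates with CHX and 3 below, against 8247 and 3750 of all 13856 genes, whose median difference was 0.16. For the 1247 genes with an ER log2 above 1 the median difference was 0.09. The median GC share of the coding sequence was 63.3% in collagens against 52.0% over all genes. The ratios without CHX rose with it, with a rho of 0.84 in the group and 0.57 over 12091 genes. For the mean of the wild-type lysates with CHX rho was 0.30 and 0.37. For the difference between the 2 conditions it was 0.74 in the group and 0.29 over all genes. The part of GC content in this difference was not tested. The total inputs also differed, with COL18A1 at 62.6 and 43.9 CPM with CHX and 15.8 without. With 1 replicate and 1 min of light in place of 10, the value has no replicate check, and the effects of CHX, of labeling time and of the line used, which the labels do not name beyond HEK293T, cannot be told apart.

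Footprints upstream of the start codon gave a second readout within the same mRNAs. In the 33 ER-enriched genes, summed footprints in 5′ UTRs were 1475 in total input and 1850 in pulldown of replicate 1 and 684 and 1227 in replicate 2, on the library scale log2 ratios of -0.29 and -0.03. Their coding footprints had log2 ratios of 2.62 and 2.15. Of 17 genes with at least 10 such footprints in both total inputs, 17 had a lower ratio in the 5′ UTR than in the coding sequence in both replicates. They were picked for a high coding ratio, and the same held for 725 of 725 such genes with an ER log2 above 1 and for 72.8% of all 4611 such genes tested, so it is not particular to the members. COL4A2, with 77.3 and 33 footprints in the 5′ UTR of the total inputs, had ratios there of 0.42 and 0.59. The 1247 genes with an ER log2 above 1 showed the same gap, with 5′ UTR ratios of -0.22 and -0.05, and over all genes tested 5′ UTR ratios were -1.13 and -0.97. The 5′ UTR footprints of ER-enriched genes were thus at the level of the library average and not of the coding sequence that follows, though above the 5′ UTR footprints of all genes. COL1A1 had 31.9 and 19.0 footprints in the 5′ UTR of the total inputs and 5.89 and 4 in the pulldowns, ratios of -3.05 and -3.12 from few counts. With cytosolic LOV-BirA the 33 ER-enriched genes had 5′ UTR ratios of -1.03 and -1.26 and coding ratios of 0.05 and -0.44. A smaller gap of the same direction was thus seen there without ER enrichment. At the OMM their 5′ UTR ratios were -0.36 and -0.15 and their coding ratios -0.23 and -0.29. These comparisons were chosen after the counts were seen and have no test.

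**Figure D5:**
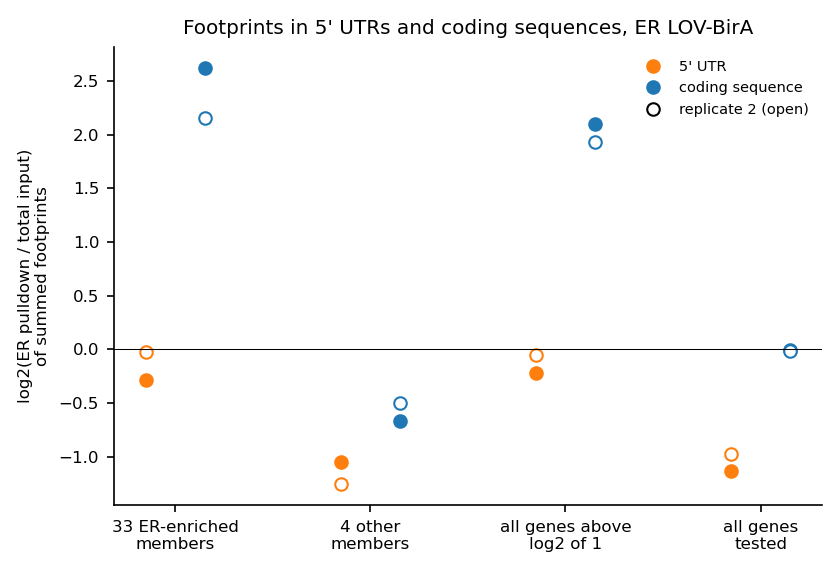
log2 ratio of ER pulldown to total input of footprints summed over 5′ UTRs (orange) and coding sequences (blue), filled points replicate 1 and open points replicate 2, scaled by coding footprints per library. For the 33 ER-enriched genes the coding sequences lie at 2.62 and 2.15 and the 5′ UTRs at -0.29 and -0.03.

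Levels of footprints per mRNA, from the total inputs of the OMM line and of wild-type RNA-seq and both taken per length, spread widely in the group. On a log2 scale centred on 5874 genes, whose SD was 1.23, the 31 members with enough counts had a median of -0.11 and 13 lay above 0. FAT3 (-3.13), FAT1 (-3.05), LAMA3 (-3.01) and FAT4 (-1.66) were at the low end, and COL4A2 (2.099), ITGB3BP (2.21) and COL4A1 (1.35) at the high end. COL1A1 was at 0.81. LAMA3, an alpha chain of laminins, was named after its values were seen. FAT1 had 242 and 230 CPM of mRNA in wild type and 106 and 118 CPM of footprints in the OMM total inputs over 13582 counted bases. The 2 assays come from different lysates. 

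Other genes of the adhesion machinery, from lists written out by function, were compared in the same fit, with the lists chosen while earlier results were known. Of 14 matrix glycoproteins and proteoglycans tested at the ER 14 were enriched, with a median log2 of 2.39 and values of 2.40 for VCAN, 2.27 for FBN2 and 2.26 for NID1, the nidogen that links laminin to type IV collagen. Of 13 other adhesion receptors 13 were enriched (DAG1 at 2.48, CD47 at 2.30, CD151 at 1.88), and so were 9 of 9 cadherin relatives (CLSTN1 at 2.42, DSG2 at 2.34, DSC3 at 2.30). Of 19 genes that fold, modify or export collagen 18 were enriched and none was depleted. Among them P4HB, the beta subunit of prolyl 4-hydroxylase, had 1.04 and PPIB, a proline isomerase of the ER, 1.70, both also enriched at the OMM at 0.70 and 0.97, while MIA3, which helps load procollagen for export, had 2.16 and -0.43. By contrast none of 15 linkers between integrins and actin was enriched at the ER and 12 were depleted (TLN1 at -1.48, ACTN4 at -0.97, ZYX at -0.84). Of 5 catenins and other junction proteins of the cytoplasm 5 were depleted (CTNNB1 at -1.11, JUP at -1.07, AFDN at -0.96). Of all genes 72% were depleted on this scale, so 12 of 15 linkers is near the share of all genes, and the linkers' median of -0.84 is near that of all genes, -0.68. With TMM 4 of the 15 linkers were enriched and 4 depleted, near the shares of 29.2% and 25.4% of all genes. On that scale 3 of the 5 catenins and other junction proteins were depleted. The counts of the other 4 lists were as given above.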

How the data were processed

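Per the labels and methods, the authors trimmed footprint reads, removed rRNA and tRNA reads with Bowtie, aligned the rest to GRCh38 and deposited estimated counts of footprints and RPKM per gene region. For the 14 RNA-seq libraries the authors aligned with STAR and deposited featureCounts counts per gene, with a score per length that is about 10 times the FPKM of the same counts and was not used for tests. Counted lengths come from the deposited files. The members, lists and tests were chosen with earlier results of these data known.

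Footprint counts of the 12 ribosome profiling libraries in coding sequences were rounded and tested with edgeR 4.0.16 (R 4.3.3), a quasi-likelihood fit with the lysate as block and total counts as library sizes, two-sided, with Benjamini-Hochberg adjustment over all genes tested and a threshold of 0.05. Genes needed 64 footprints in each total input of the locations compared, or a mean of 64 RNA-seq counts. Entries shared by several genes (1079, with 5.86 to 8.56% of footprints) were not tested but counted in library totals. RNA-seq ratios per lysate had 0.5 counts added, and footprint ratios had none. Levels in total inputs used TMM. The script was tested on simulated data.

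The block pairs the total input and pulldown of 1 lysate. Their deviations from group means correlated at 0.584 to 0.886. Numbers shared between genotypes gave -0.073 to 0.340 and pair nothing. No 2 libraries were identical. Total and pulldown of cytosolic replicate 1 came from different raw-data folders by the paths in the file headers. These folders are taken here as sequencing runs, which the sample labels do not name. By these paths the replicates of each location also came from different runs. ER replicate 2 and OMM replicate 2 shared a run, and only cytosolic replicate 2 was in a run of its own. A gap between replicates thus cannot be told apart from a gap between runs.

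Genes named were the 4 per class with most ER footprints, the 5 highest and lowest at the ER, at the OMM and in wild-type RNA-seq, those called with cytosolic LOV-BirA or between genotypes (at most 3 per direction by size), the longest and shortest, all not enriched at the ER, and 3 per list. Calls beyond 3 per direction were named after their values were seen. Alternatives were TMM, DESeq2 1.42.0, other minimums, all exons, no block and each replicate left out.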

Additional observations from a re-analysis of the deposited data

Results flagged for a closer look

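Differences between groups under the same contrast, each tested as a difference in the fit across all genes, drew attention to the following results. OMM enrichment in AKAP1 null cells minus that in wild type was -1.23 for ITGAE and -0.94 for ITGB1BP1, and 0.66 for ITGAV, 0.65 for CDH2, 0.64 for COL6A2, 0.60 for ITGA5, 0.59 for LAMC1, 0.58 for ITGA6 and 0.55 for ITGB1. In this contrast 6.52% of all genes were higher and 7.96% lower. With TMM 0 members were called higher, so the positive calls depend on the scale. Between locations, 30 genes had a higher and 2 a lower enrichment at the ER than in the cytosol, against 19.6% and 62.6% of all genes. At the ER 28 had a higher and 2 a lower one than at the OMM, against 18.5% and 31% of all genes. At the OMM 1 had a higher and 5 a lower one than in the cytosol. In that last contrast ITGAE was higher, and COL1A1 (-1.45), COL14A1 (-0.94), ITGA8 (-0.82), FAT4 (-0.62) and ITGAV (-0.51) were lower, against 16.5% and 39.7% of all genes. ITGA8 was named after its values were seen. No cause was tested.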

How the results depend on the processing

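Of the named genes' alternatives 1057 kept direction and call, 170 lost the call and 6 reversed: at the ER ITGAE with TMM (0.63) and DESeq2 (0.59) and ITGB3BP with TMM (0.0229), ER minus cytosol ITGB3BP with TMM (0.0746) and DESeq2 (0.0141), and wild-type RNA-seq CDH2 with TMM (0.0056). TMM and DESeq2 centre the median of all genes near 0. Counts below are of members called. With DESeq2 26% of all genes were higher and 21.2% lower at the ER, and 25% and 18.8% at the OMM. For AKAP1 null minus wild type 2.66% and 9.87% were. Without the block these shares were 17.8% and 43%, 7.62% and 15%, and 0.707% and 2.39%. For other minimums, all exons and left-out replicates no share of all genes is given here, so those counts show only how calls moved. With TMM and DESeq2 in turn, 1 and 1 were lower at the ER, 4 and 5 higher and 3 and 1 lower at the OMM, 1 and 0 lower in the cytosol, 1 and 1 lower for ER minus cytosol, 3 and 3 higher and 1 and 1 lower for OMM minus cytosol, 7 and 8 higher and 13 and 12 lower in wild-type RNA-seq, and 0 and 3 higher for AKAP1 null minus wild type. Without the replicate block that pairs total input and pulldown, 0 were lower at the ER, OMM, cytosol, ER minus cytosol and OMM minus cytosol, 1 lower for ER minus OMM, 10 lower in wild-type RNA-seq and 0 higher for AKAP1 null minus wild type, while 32 stayed called higher at the ER, 28 against the cytosol and 26 against the OMM. With a minimum 4 times as high, fewer genes were tested: 21 higher at the ER, 0 higher and 8 lower at the OMM, 19 higher for ER minus cytosol, 0 higher and 1 lower for OMM minus cytosol, and 16 higher and 1 lower for ER minus OMM. Counting all exons gave 3 higher at the OMM, 1 higher in the cytosol and 2 higher for OMM minus cytosol. A minimum of 10 or none gave 2 higher for OMM minus cytosol, and no minimum gave 16 higher for AKAP1 null and 2 for LARP4 null against wild type, and 1 and 3 higher mRNA levels. Fitting the cytosol alone gave 1 lower. Leaving out 1 replicate gave 4 to 8 lower at the OMM, 0 to 1 higher and 1 to 11 lower in the cytosol, 1 to 4 higher and 1 to 12 lower for OMM minus cytosol (12 without cytosol replicate 2, 4 without replicate 1), 10 to 18 lower in wild-type RNA-seq, 0 to 2 higher for AKAP1 null, and 0 to 10 higher and 0 to 1 lower for LARP4 null. Spearman's rho with length at the ER was -0.0077 without ITGB1BP1 and ITGB3BP, -0.0557 in ER-enriched members, 0.0484 with the higher minimum, 0.14 with TMM, 0.14 with DESeq2 and 0.17 to 0.18 with a replicate left out. At the OMM it was -0.28 without these genes, -0.28 with the higher minimum and -0.34 to -0.28 with a replicate left out, and in the cytosol -0.45 to -0.0874. The cause of these shifts was not tested. The shallowest library, an OMM pulldown, held 1025134 footprints.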

Other observations

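Adhesion genes outside the group were also compared at the OMM between AKAP1 null and wild-type cells. Of 18 matrix glycoproteins and proteoglycans 7 were higher in the null line and none lower, with a median difference of 0.57, and of 14 cadherin relatives 5 were higher and none lower, with a median of 0.48. DSG2, a desmosomal cadherin, differed by 0.66 ± 0.13, NID1 by 0.72 ± 0.17 and DAG1, the dystroglycan receptor for laminin, by 0.59 ± 0.13. Of 26 collagen processing genes 5 were higher, of 15 other adhesion receptors 6 and of 21 linkers between integrins and actin 1. Of 7 catenins and other junction proteins of the cytoplasm 0 were higher, and no gene of these lists was lower. Of all genes 6.52% were higher and 7.96% lower, and their median was 0.19 on this scale. With TMM, which brings that median to 0.01, 2 other adhesion receptors were higher, 1 collagen processing gene was lower and no gene of the other 4 lists was called, against 2.06% and 10.3% of all genes.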
